A study of Mus musculus with 10 samples.

Results

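The globin genes and red cell genes *Hbb-y*, *Hbb-bh1*, *Hba-x*, *Hbb-bt*, *Hbb-bs*, *Hba-a1*, *Hba-a2*, *Alas2* and *Slc4a1* were followed in RNA-seq of the lumbar spinal cord of 10 mouse embryos. The genes were chosen by name and with earlier results of these data known, 3 as embryonic globins, 4 as adult globins and 2 as other genes of red cells. All 9 were found among the 54146 genes of the count table by their identifier, and all 9 belonged to the 19773 genes that passed the expression filter of edgeR. Tissue came at E12.5 from 5 control and 5 *Dot1l*-cKO littermates of 2 litters, with 3 embryos of each genotype in litter 1 and 2 of each in litter 2. RNA of dorsal root ganglion markers was counted in every embryo, in the amounts given below. *Dot1l*-cKO embryos were Wnt1cre2/+ and Dot1lfl/fl, where the *Wnt1* promoter drives the recombinase in the dorsal neural tube and neural crest. Controls were +/+ for the transgene, with Dot1lfl/fl in litter 1 and Dot1lfl/+ in litter 2, so that among controls the litter and the number of floxed alleles cannot be told apart. The strain given for all embryos was B6.Cg-E2f1Tg(Wnt1-cre)2Sor/J, and no embryo was treated. The comparisons below address how much blood RNA each cord carried, how the balance of embryonic and adult globins differed between the litters, and whether either differed with the genotype.

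Haemoglobin is built from alpha-like and beta-like chains, and each haem group it carries is made in the red cell precursor. In the mouse embryo the primitive red cells of the yolk sac circulate before the definitive red cells of the fetal liver. Primitive cells carry embryonic globins in addition to adult ones, while definitive cells carry adult globins, so that the embryonic share of globin RNA in blood falls as gestation proceeds. Among the embryonic beta-like genes, *Hbb-bh1* is known to decline earlier than *Hbb-y*.

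The beta-like genes lie in a cluster on the minus strand of chromosome 7 in the GRCm38 build, with *Hbb-bt* at chr7:103812524-103813996, *Hbb-bs* at chr7:103826534-103828096, *Hbb-bh1* at chr7:103841637-103843164 and *Hbb-y* at chr7:103851749-103853216. The alpha-like genes lie on the plus strand of chromosome 11, with *Hba-x* at chr11:32276400-32278116, *Hba-a1* at chr11:32283511-32284465 and *Hba-a2* at chr11:32296489-32297298. *Slc4a1* lies on the minus strand at chr11:102348824-102366203 and *Alas2* on the plus strand at chrX:150547375-150570638. The first 60 coding bases, all within 1 coding exon of the GENCODE transcript, are shown because they tell how far a sequenced read could separate an embryonic from an adult gene. Capitals mark bases that differ from *Hbb-bs* in the beta-like genes and from *Hba-a1* in the alpha-like genes.
Hbb-bs and Hbb-bt: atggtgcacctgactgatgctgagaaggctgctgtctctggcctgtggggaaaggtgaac
Hbb-bh1: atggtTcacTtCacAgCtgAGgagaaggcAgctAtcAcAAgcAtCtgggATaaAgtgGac
Hbb-y: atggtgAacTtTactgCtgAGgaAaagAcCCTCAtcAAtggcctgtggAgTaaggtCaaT
Hba-a1 and Hba-a2: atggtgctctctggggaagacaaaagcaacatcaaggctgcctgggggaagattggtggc
Hba-x: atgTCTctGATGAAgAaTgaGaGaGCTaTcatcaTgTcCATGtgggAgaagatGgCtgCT
Of these 60 bases, 18 differed in *Hbb-bh1*, 19 in *Hbb-y* and 28 in *Hba-x*. Over the whole coding sequence *Hbb-y* and *Hbb-bh1* were 76.4% identical to each other and 74.3% and 74.1% identical to *Hbb-bs*, and *Hba-x* was 62.0% identical to *Hba-a1*. The adult copies differed at 1 base each, of 444 coding bases between *Hbb-bs* and *Hbb-bt* (C417T, counted from the A of the start codon) and of 429 between *Hba-a1* and *Hba-a2* (C381T). The coding bases around these positions, with the differing base in capitals, show how little of the coding sequence tells the copies apart.
Hbb-bs: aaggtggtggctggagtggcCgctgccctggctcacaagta
Hbb-bt: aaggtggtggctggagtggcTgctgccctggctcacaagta
Hba-a1: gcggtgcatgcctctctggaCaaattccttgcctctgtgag
Hba-a2: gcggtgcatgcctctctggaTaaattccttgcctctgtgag
Of the 75-base windows of each gene's annotated transcripts, 100% occurred in no other gene for *Hbb-y*, *Hbb-bh1*, *Hba-x* and *Slc4a1*, and 90.1% for *Alas2*. The share was 48.5% for *Hbb-bs*, 43.4% for *Hbb-bt*, 32.1% for *Hba-a1* and 15.4% for *Hba-a2*. How the counting treated reads that match both copies is not spelled out in the sources used here, so the split within each adult pair is uncertain, while the sum of a pair is not affected by it unless such reads were left out.

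Total counts lay between 40949585 and 68928443 per embryo. The targeted gene *Dot1l* was at 87.5 to 107 CPM in controls and 97.8 to 112 CPM in the embryos labelled *Dot1l*-cKO, so the counts over the whole gene do not check the genotype. Both *Dot1l*-cKO embryos of litter 2 had 156 and 172 CPM over 4 Y-linked genes and 6.00 and 6.79 CPM of *Xist*, whereas the other 8 embryos had at most 1.16 CPM over the Y-linked genes and 499 to 889 CPM of *Xist*. Within litter 2 the genotype and this sex difference therefore cannot be told apart, and the *Dot1l*-cKO embryos also carried it in any comparison of the litters. The libraries of litter 2 also differed by GC content, measured as the median log2 deviation from the mean of all embryos of GC-rich genes (above the upper quartile) minus that of GC-poor genes (below the lower quartile). This value was -0.18 and -0.19 in the controls of litter 2, 0.03 and 0.11 in their *Dot1l*-cKO littermates and -0.04 to 0.16 in litter 1. Each replicate is 1 embryo, and p-values measure the spread between embryos of these 2 litters.

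Blood content was read as the share of all counts on the 9 genes. In litter 1 the share was 0.103%, 0.0957% and 0.103% in the 3 controls and 0.0987%, 0.0899% and 0.0950% in the 3 *Dot1l*-cKO embryos. In litter 2 it was 0.135% and 0.145% in the controls and 0.170% and 0.207% in the *Dot1l*-cKO embryos. Every embryo of litter 2 was above every embryo of litter 1, and both *Dot1l*-cKO embryos of litter 2 were above both of their control littermates. The mean was 0.0976% ± 0.00518 (SD, n = 6) in litter 1 and 0.165% ± 0.0321 (SD, n = 4) in litter 2, and the geometric means differed 1.67-fold, by 0.74 on the log2 scale, against a pooled SD of 0.10 among embryos of one litter and genotype. Within litter 2 the *Dot1l*-cKO embryos were 1.34-fold above controls (0.42 on the log2 scale, and 0.28 without *Dot1l*-cKO embryo 5), and within litter 1 they were at 0.938 of the controls, with overlapping values. The difference between the litters was not seen in every group of the 9 genes. The summed level of the 4 adult globins was 254 ± 29.5 CPM (SD, n = 6) in litter 1 and 236 ± 87.7 CPM (SD, n = 4) in litter 2, with overlapping values, while that of the 3 embryonic globins was 686 ± 54.0 and 1388 ± 228 CPM without overlap. *Hbb-y* alone gave 584 of the 964 CPM of all 9 genes in the mean of litter 1. No p was computed for a sum over chosen genes. The exact 95% binomial interval of each share was narrow, for example 0.206% to 0.209% in *Dot1l*-cKO embryo 5, and covers counting error only. In bulk tissue, fewer red cells and less RNA per red cell cannot be told apart.

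**Figure D1:**
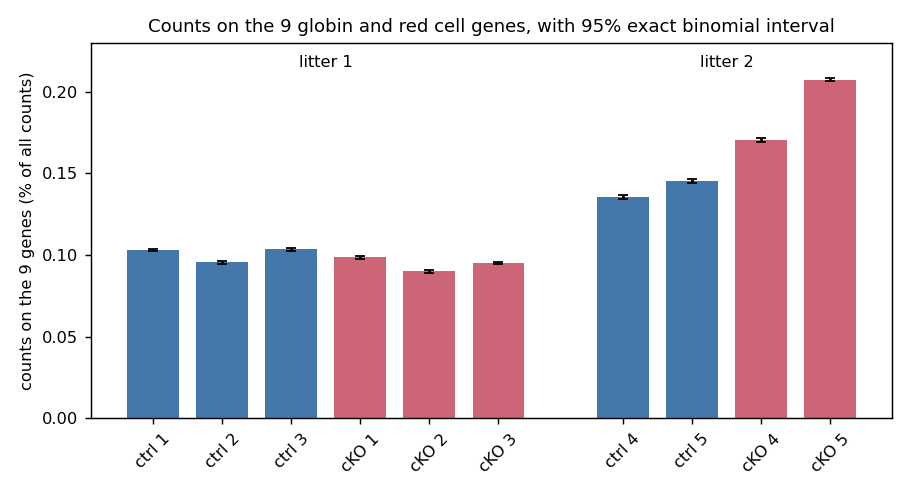
Share of all counts that fell on the 9 globin and red cell genes (y axis, percent) in each of the 10 embryos (bars), controls in blue and Dot1l-cKO in red, with exact 95% binomial intervals. The 6 bars of litter 1 lie between 0.0899% and 0.103%, and the 4 bars of litter 2 between 0.135% and 0.207%.

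Embryonic *Hbb-y* had the highest counted level of the 9 genes. Whether reads shared by the adult copies were counted is not known, and if they were left out the adult levels here, and their place in the order, are too low. Compared per kilobase of annotated exons, its mean level in litter 1 was 922 ± 78.6 CPM per kb (SD, n = 6), followed by *Hbb-bs* at 139 ± 12.2, *Hba-x* at 99.9 ± 8.10, *Hba-a1* at 90.1 ± 26.3, *Hbb-bt* at 67.5 ± 9.28 and *Hba-a2* at 39.7 ± 9.48 CPM per kb. *Hbb-bh1* at 14.2 ± 2.73, *Alas2* at 4.76 ± 0.531 and *Slc4a1* at 2.63 ± 0.268 CPM per kb closed the order. In litter 1 the range of *Hba-a1* overlapped those of its neighbours *Hba-x* and *Hbb-bt* and also that of *Hbb-bs*, while the other neighbours in this order had separate ranges. In litter 2 the order changed, with *Hba-x* in the place after *Hbb-y* at 288 ± 64.2 CPM per kb (SD, n = 4) and *Hbb-bh1* at 81.4 ± 16.3, beside *Hbb-bs* at 81.5 ± 22.1 CPM per kb. In litter 2 *Slc4a1* was at 7.77 ± 1.72 and *Alas2* at 6.52 ± 0.897 CPM per kb, with overlapping ranges. In counts, *Hbb-y* took 76.0% to 80.2% of the beta-like reads of each embryo in litter 1 and 86.3% to 89.0% in litter 2.

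The litters were compared with edgeR's quasi-likelihood test on TMM-normalized counts, with the genotype in the model and Benjamini-Hochberg adjustment over all 19773 genes at 0.05. Of the 9 genes, 5 were called higher in litter 2, which are *Hbb-y*, *Hbb-bh1*, *Hba-x*, *Alas2* and *Slc4a1*, beside 16.9% of all genes tested. One adult globin, *Hbb-bs*, was called lower, beside 17.8% of all genes tested, and the remaining 3 adult globins did not pass. With library sizes alone in place of TMM, 2548 of all genes were called higher and 4305 lower, against 3337 and 3521 with TMM, while the calls of the 9 genes did not change. The same 5 genes were higher in all 4 embryos of litter 2 than in all 6 of litter 1, as were 11.9% of all genes, and *Hbb-bs* was lower without overlap, as were 11.6% of all genes. The median log2 fold change of the 9 genes was 0.45, beside -0.02 for all genes tested.

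The embryonic beta-like *Hbb-bh1* had the largest difference of the 9 genes and the smallest p of all 19773 genes between the litters. In litter 1 it was at 6.49, 8.21 and 8.10 CPM in controls and at 9.23, 8.69 and 11.6 CPM in *Dot1l*-cKO embryos. In litter 2 it was at 38.4 and 45.7 CPM in controls and 54.6 and 61.1 CPM in *Dot1l*-cKO embryos. The litters were far apart, with no embryo in between. *Hbb-bh1* was 5.70-fold higher in litter 2 (log2 fold change 2.51, standard error 0.09, adjusted p = 3.67e-09 by the edgeR test).

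*Hba-x*, the embryonic alpha-like chain, was at 91.4, 86.1 and 104 CPM in the controls of litter 1 and at 93.5, 85.9 and 101 CPM in their *Dot1l*-cKO littermates. In litter 2 it reached 221 and 225 CPM in controls and 284 and 349 CPM in *Dot1l*-cKO embryos. The litters did not overlap, and litter 2 was 2.85-fold higher (log2 fold change 1.51, standard error 0.10, adjusted p = 5.00e-07 by the same edgeR test). *Hbb-y*, the most abundant of the 9 genes, was at 634, 587 and 630 CPM in the controls and 559, 500 and 592 CPM in the *Dot1l*-cKO embryos of litter 1. It was at 925 and 1001 CPM in the controls and 1050 and 1296 CPM in the *Dot1l*-cKO embryos of litter 2. *Hbb-y* was again higher in every embryo of litter 2, by 1.83-fold (log2 fold change 0.87, standard error 0.09, adjusted p = 6.02e-06 by edgeR's test).

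**Figure D2:**
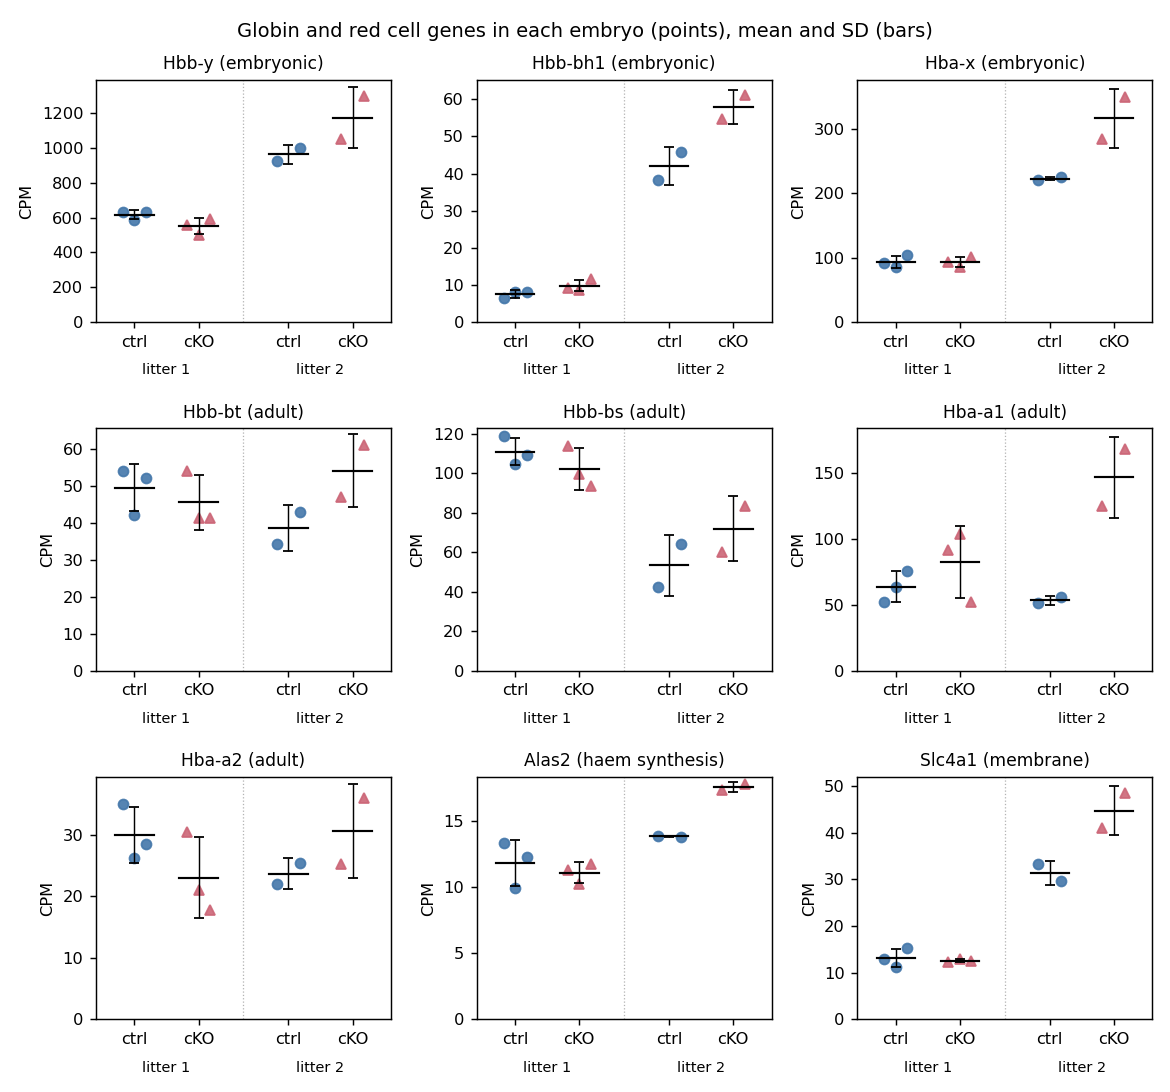
TMM-normalized level (y axis, CPM, from 0) of each of the 9 genes in every embryo, controls as blue circles and Dot1l-cKO as red triangles, by litter, with the mean and SD of each litter and genotype as bars. The embryonic globins and Slc4a1 separate the litters, Hbb-bs is lower in litter 2, and Hba-a1 is high in both Dot1l-cKO embryos of litter 2, at 125 and 169 CPM.

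The adult globins did not follow. *Hbb-bs*, the adult beta-like gene with the higher counts, was at 119, 105 and 109 CPM in the controls and 114, 99.4 and 93.2 CPM in the *Dot1l*-cKO embryos of litter 1. It was at 42.3 and 64.3 CPM in the controls and 60.2 and 83.6 CPM in the *Dot1l*-cKO embryos of litter 2. All 4 embryos of litter 2 lay below all 6 of litter 1, and the log2 fold change was -0.78 (standard error 0.13, adjusted p = 5.20e-04 by edgeR's test), or 1.71-fold lower. *Hbb-bt*, its near-identical neighbour, ranged from 41.2 to 54.0 CPM in litter 1 and from 34.2 to 61.0 CPM in litter 2 (log2 fold change -0.05, standard error 0.13, adjusted p = 0.828 by edgeR). Because reads can be split between both copies in an unknown way, their counts were also summed, and the sum was lower in litter 2 by a log2 fold change of -0.51 (standard error 0.13, adjusted p = 0.00705 by edgeR).

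*Hba-a1*, an adult alpha chain, had the largest SD relative to its mean of the 9 genes within each litter. It was at 52.2, 63.5 and 75.6 CPM in the controls and 91.8, 104 and 52.0 CPM in the *Dot1l*-cKO embryos of litter 1. In litter 2 it was at 51.1 and 55.7 CPM in controls and 125 and 169 CPM in *Dot1l*-cKO embryos. The litters overlapped, with a log2 fold change of 0.32 (standard error 0.22, adjusted p = 0.280 by edgeR). *Hba-a2* ranged from 17.8 to 35.1 CPM in litter 1 and from 22.0 to 36.1 CPM in litter 2 (log2 fold change 0.05, standard error 0.17, adjusted p = 0.860 by edgeR). The sum of *Hba-a1* and *Hba-a2* did not pass either (log2 fold change 0.26, standard error 0.20, adjusted p = 0.337 by edgeR).

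*Slc4a1* encodes band 3, the anion exchanger of the red cell membrane. It was at 12.9, 11.3 and 15.2 CPM in the controls and 12.3, 13.0 and 12.5 CPM in the *Dot1l*-cKO embryos of litter 1, and at 33.2 and 29.5 CPM in the controls and 40.9 and 48.4 CPM in the *Dot1l*-cKO embryos of litter 2. Litter 2 was 2.92-fold higher (log2 fold change 1.55, standard error 0.11, adjusted p = 7.99e-07 by edgeR's test), without overlap. *Alas2*, the erythroid enzyme of the opening step of haem synthesis, differed less. It was at 13.3, 9.89 and 12.3 CPM in the controls and 11.3, 10.2 and 11.7 CPM in the *Dot1l*-cKO embryos of litter 1. In litter 2 it was at 13.9 and 13.8 CPM in the controls and 17.3 and 17.8 CPM in the *Dot1l*-cKO embryos. The gap between the litters was small, since control 1 of litter 1 nearly reached the controls of litter 2, and the log2 fold change was 0.45 (standard error 0.10, adjusted p = 0.00332 by edgeR).

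Among controls alone, all of which had *Xist* and hardly any Y-linked RNA, the signed log2 fold change of litter 2 over litter 1 was below that among *Dot1l*-cKO embryos for all 9 genes, and *Hbb-bt*, *Hba-a1* and *Hba-a2* had opposite signs in controls and *Dot1l*-cKO embryos. The log2 fold changes in controls were 2.47 for *Hbb-bh1*, 1.26 for *Slc4a1*, 1.25 for *Hba-x*, 0.65 for *Hbb-y* and -1.06 for *Hbb-bs*, with adjusted p of 3.24e-07, 2.16e-05, 3.68e-06, 7.59e-05 and 2.47e-04 by edgeR's test. *Alas2* at 0.23 was not called among controls (adjusted p = 0.223 by edgeR). *Hbb-bt*, *Hba-a1* and *Hba-a2* were at -0.36, -0.25 and -0.34 among controls, with adjusted p of 0.050, 0.162 and 0.0655 by edgeR, and at 0.25, 0.83 and 0.41 among *Dot1l*-cKO embryos, where *Hba-a1* was called (adjusted p = 0.0483) and the other two were not (0.264 and 0.233).

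The ratio of embryonic to adult globin counts, *Hbb-y*, *Hbb-bh1* and *Hba-x* over *Hbb-bt*, *Hbb-bs*, *Hba-a1* and *Hba-a2*, separated the litters. In litter 1 it was 2.82, 2.88 and 2.79 in the controls and 2.28, 2.24 and 3.45 in the *Dot1l*-cKO embryos. In litter 2 it was 7.92 and 6.75 in the controls and 5.39 and 4.88 in the *Dot1l*-cKO embryos. Every embryo of litter 2 had the higher ratio, and the geometric means differed 2.26-fold (1.17 on the log2 scale, against a pooled SD of 0.22 within litter and genotype). Embryonic globins took 69.1% to 77.5% of the globin counts in litter 1 and 83.0% to 88.8% in litter 2. As a read of stage, the ratio put litter 2 on the side of the larger embryonic share, although all embryos were labelled E12.5. Scaled per kilobase of exons, the ratio was 2.58 to 3.92 in litter 1 and 5.51 to 8.81 in litter 2.

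The beta-like and the alpha-like chains each gave the same order of the litters. For *Hbb-y* and *Hbb-bh1* over *Hbb-bt* and *Hbb-bs*, the ratio was 3.71, 4.05 and 3.95 in the controls and 3.39, 3.62 and 4.49 in the *Dot1l*-cKO embryos of litter 1. It was 12.6 and 9.76 in the controls and 10.3 and 9.39 in the *Dot1l*-cKO embryos of litter 2, which was 2.71-fold higher. Within each litter the genotypes overlapped in this ratio. For *Hba-x* over *Hba-a1* and *Hba-a2*, the ratio was 1.05, 0.958 and 1.0 in the controls and 0.765, 0.688 and 1.45 in the *Dot1l*-cKO embryos of litter 1. It was 3.02 and 2.78 in the controls and 1.89 and 1.70 in the *Dot1l*-cKO embryos of litter 2, so that the litters did not overlap but the *Dot1l*-cKO embryos of litter 2 lay nearer to litter 1. In the ratio of all globins the *Dot1l*-cKO embryos of litter 2 were at 0.702 of their control littermates (-0.51 on the log2 scale), and without *Hba-a1* among the adult globins at 0.927 (-0.11), where the genotypes overlapped. No p was computed for these ratios, which are scores over chosen genes.

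**Figure D3:**
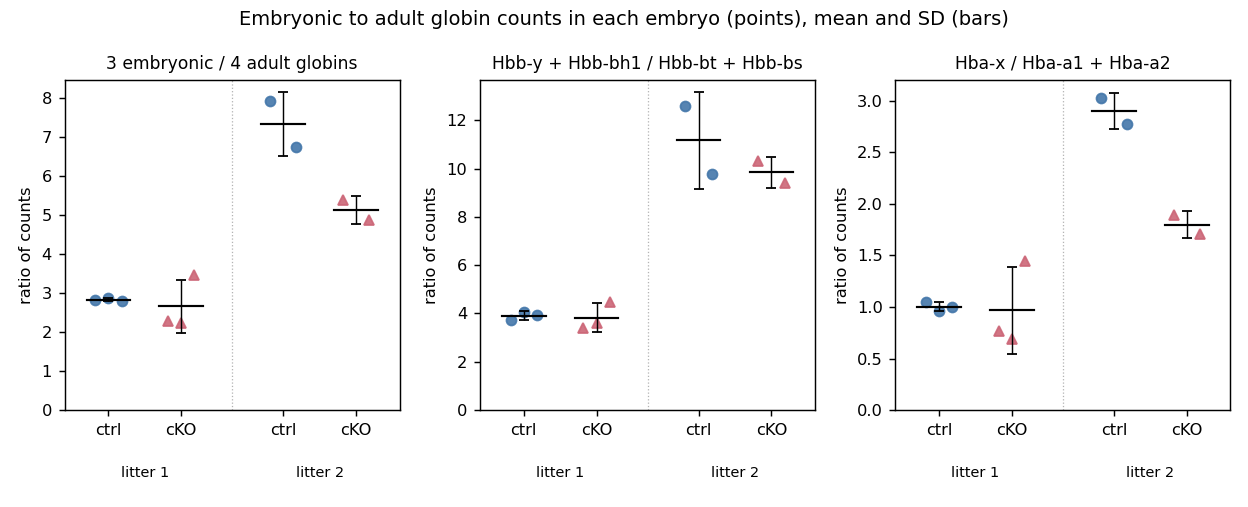
Ratio of embryonic to adult globin counts (y axis, from 0) in each embryo for all 7 globins, for the beta-like and for the alpha-like genes, controls as circles and Dot1l-cKO as triangles, with the mean and SD of each litter and genotype. In the panel of all globins the embryos of litter 1 lie between 2.24 and 3.45 and those of litter 2 between 4.88 and 7.92.

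Ratios within pairs of genes differed between the litters too, so that the 9 genes did not move as 1 block. *Hbb-y* counts were 97.7, 71.5 and 77.8 times those of *Hbb-bh1* in the controls and 60.6, 57.5 and 51.2 times in the *Dot1l*-cKO embryos of litter 1, and 24.1 and 21.9 times in the controls and 19.2 and 21.2 times in the *Dot1l*-cKO embryos of litter 2. *Hbb-bh1* thus took 0.798% to 1.57% of the beta-like counts in litter 1 and 3.69% to 4.50% in litter 2. *Slc4a1* counts were 0.972 to 1.27 times those of *Alas2* in litter 1 and 2.14 to 2.72 times in litter 2. *Hbb-bs* counts were 2.10 to 2.49 times those of *Hbb-bt* in litter 1 and 1.24 to 1.49 times in litter 2. None of these 3 ratios overlapped between the litters. *Hba-a1* over *Hba-a2* did not separate the litters, at 1.49 to 4.95 in litter 1 and 2.19 to 4.96 in litter 2. It was higher in *Dot1l*-cKO embryos than in controls within both litters, at 3.02, 4.95 and 2.93 against 1.49, 2.41 and 2.65 in litter 1 and at 4.96 and 4.68 against 2.33 and 2.19 in litter 2. These differences were 0.73 and 1.09 on the log2 scale, against a pooled SD of 0.36. How reads were split between *Hba-a1* and *Hba-a2* is uncertain, and in litter 2 the sex went with the genotype. Of single genes, 9.1% in litter 1 and 24.2% in litter 2 were higher in *Dot1l*-cKO embryos without overlap. No such share was computed for ratios. *Hbb-y* over *Hbb-bh1* also separated the genotypes within both litters, and was the lower in *Dot1l*-cKO embryos.

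**Figure D4:**
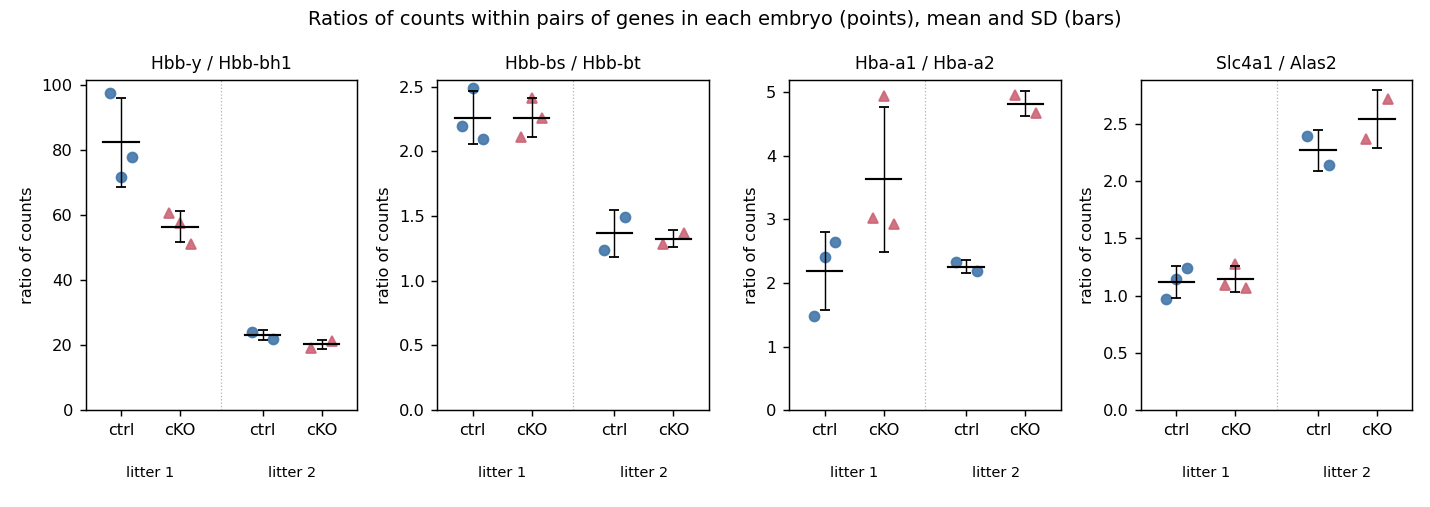
Ratio of counts within 4 pairs of genes (y axis, from 0) in each embryo, controls as circles and Dot1l-cKO as triangles, with the mean and SD of each litter and genotype. Hbb-y to Hbb-bh1, Hbb-bs to Hbb-bt and Slc4a1 to Alas2 separate the litters, and Hba-a1 to Hba-a2 and Hbb-y to Hbb-bh1 separate the genotypes within each litter. How reads were split between Hba-a1 and Hba-a2, and between Hbb-bs and Hbb-bt, is uncertain.

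Between the genotypes, with the litter in the model, 1 of the 9 genes was called higher in *Dot1l*-cKO embryos, beside 1.9% of all genes tested, and 0 were called lower, beside 1.09%. The gene was *Hbb-bh1* (log2 fold change 0.41, standard error 0.09, adjusted p = 0.0348 by the edgeR quasi-likelihood test after Benjamini-Hochberg adjustment), or 1.33-fold higher, and DESeq2 and limma-voom called it as the 1 gene of the 9 too. It was higher in all *Dot1l*-cKO embryos than in all controls within each litter. The call was lost when control 1, 3, 4 or 5 or *Dot1l*-cKO embryo 1 or 5 was left out, and the adjusted p ranged from 0.0288 to 0.112 by edgeR over the leave-one-out fits. In those fits the log2 fold change stayed between 0.35 and 0.46. *Hba-a1* had the larger difference, at a log2 fold change of 0.80, but did not pass (standard error 0.21, adjusted p = 0.0563 by edgeR), and its sum with *Hba-a2* did not pass either (0.58, adjusted p = 0.107 by edgeR). Over the leave-one-out fits the adjusted p of *Hba-a1* by edgeR ranged from 0.00304, without *Dot1l*-cKO embryo 3, to 0.153, without control 4, and the other 9 of these 10 fits did not call it. The other 7 genes had log2 fold changes between -0.08 for *Hba-a2* and 0.20 for *Hba-x*, with adjusted p from 0.239 to 0.942 by edgeR. At an unadjusted p below 0.05 there were 2 of the 9, *Hbb-bh1* and *Hba-a1*, both higher, beside 4290 of the 19773 genes tested. The share of the 9 was thus near that of all genes. DESeq2 and limma-voom called 0 of the 9 lower. Their median log2 fold change was 0.12, beside -0.01 for all genes tested.

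Within litter 1 the 9 genes showed no call between genotypes by edgeR, with *Hbb-y* and *Hbb-bh1* at an unadjusted p of 0.0437 and 0.0208. In that fit 2717 of the 19275 genes tested had an unadjusted p below 0.05. *Hbb-bh1* was the 1 member with all 3 *Dot1l*-cKO embryos above all 3 controls, as were 9.1% of all genes, and its log2 fold change was 0.38 (adjusted p = 0.252 by edgeR). *Hbb-y* was at -0.16 and the remaining 7 genes between -0.38 for *Hba-a2* and 0.38 for *Hba-a1* on the log2 scale. Within litter 2, 5 of the 9 genes were called higher in *Dot1l*-cKO embryos, beside 3.98% of the genes tested in that litter. They were *Hba-a1* (log2 fold change 1.47, adjusted p = 2.47e-05), *Slc4a1* (0.51, adjusted p = 0.0103), *Hba-x* (0.51, adjusted p = 0.00516), *Hbb-bt* (0.49, adjusted p = 0.0377) and *Hbb-bh1* (0.47, adjusted p = 0.0117), each by edgeR's test. In 7 of the 9 genes both *Dot1l*-cKO embryos were above both controls, all but *Hbb-bs* and *Hba-a2*, as in 24.2% of all genes. The fit of litter 2 rests on 2 embryos against 2, and both *Dot1l*-cKO embryos there carried Y-linked RNA, so the genotype and the sex cannot be told apart. The controls of litter 2 were Dot1lfl/+, so the number of floxed alleles differed between these embryos too. The GC trend given above separated the same embryos.

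**Figure D5:**
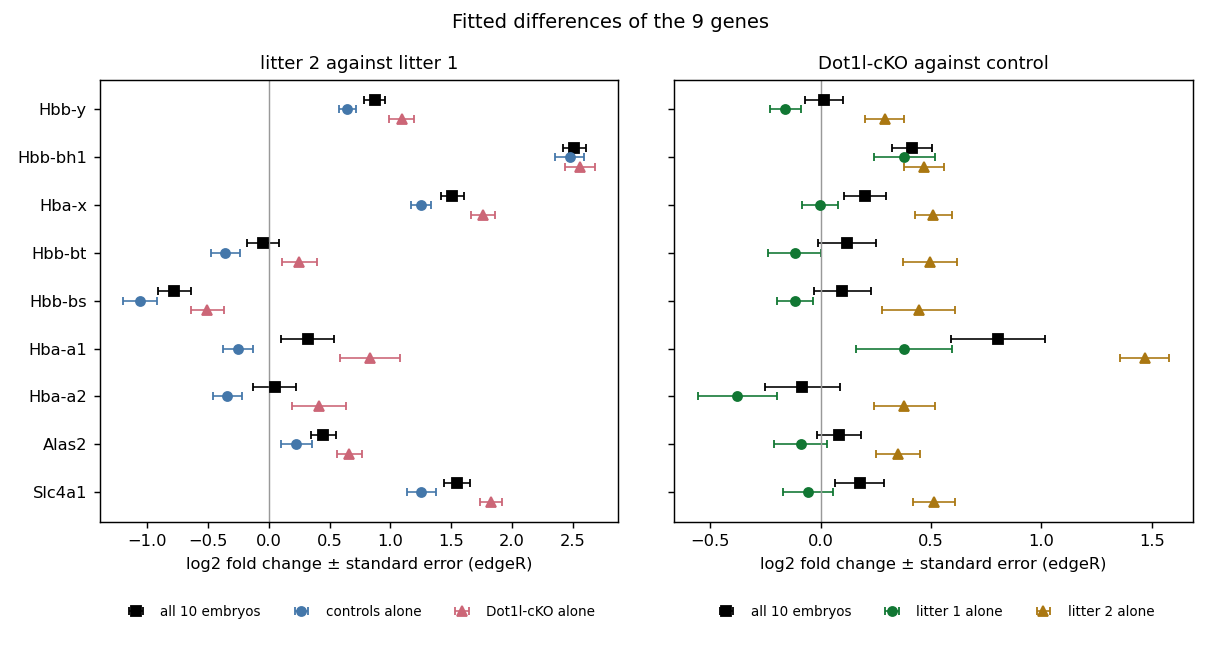
Log2 fold change of each of the 9 genes with its standard error (x axis, edgeR) between the litters (left) and between the genotypes (right), from all 10 embryos and from each genotype or litter alone. On the left Hbb-bh1 lies at 2.51 and Hbb-bs at -0.78, and on the right the values from litter 2 alone lie to the right of those from litter 1 alone for all 9 genes.

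Whether the genotype difference itself differed between the litters was tested with an interaction term. The controls were Dot1lfl/fl in litter 1 and Dot1lfl/+ in litter 2, and Y-linked RNA marked the *Dot1l*-cKO embryos of litter 2 alone. The term cannot be told apart from these differences. All 9 genes had a positive term, meaning a larger *Dot1l*-cKO over control value in litter 2, from 0.09 for *Hbb-bh1* to 1.09 for *Hba-a1* on the log2 scale. None passed the adjustment by edgeR (adjusted p from 0.375 to 0.921), beside 0.0101% of all genes called. At an unadjusted p below 0.05 there were 8 of the 9, all but *Hbb-bh1*, beside 8.19% of all genes. This count was 4 without *Dot1l*-cKO embryo 5, 5 without control 1 and 5 without control 4, and 6 by DESeq2 and by robust edgeR. All 9 were measured in the same 10 embryos, so the 8 are not separate observations. The terms were 0.45 for *Hbb-y*, 0.51 for *Hba-x* and 0.57 for *Slc4a1*, with standard errors of 0.13, 0.14 and 0.17. DESeq2 and limma-voom called none of the 9. The edgeR fit without the expression filter called 7, beside 437 of the 35244 genes tested in it. Its standard errors were smaller for all but *Alas2*, at 0.11 in place of 0.32 for *Hba-a1*, so these calls rest on the filter. After GC correction of each library the terms ranged from 0.13 for *Hbb-bh1* to 0.98 for *Hba-a1*, with *Hba-x* at 0.42 and *Hba-a2* at 0.64 in place of 0.51 and 0.75, and none passed the adjustment.

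Other genes of red cells were read from lists. Among 18 genes of the red cell membrane, 17 were tested, and 9 were higher and 4 lower in litter 2, beside the 16.9% of all genes called higher and the 17.8% called lower, so the share of lower genes was near that of all genes. Among the higher were *Rhag* and *Kel*, a Rhesus-associated transporter and a blood group protease, at log2 fold changes of 2.31 and 2.17 (adjusted p = 5.04e-05 and 7.99e-07 by edgeR), protein 4.2 *Epb42* at 1.81, *Rhd* at 1.69 and *Ermap* at 1.58. These 5 genes were low, between 0.143 and 5.72 CPM in any embryo. Of the same list, *Sptb*, *Ank1*, *Dmtn* and *Aqp1* were lower in litter 2, at -0.55, -0.30, -0.31 and -0.55. *Epb41*, the most abundant of the list at 380 to 558 CPM, was higher, at 0.29. Neurons or vessels can also express genes of this list, whether higher or lower, and which cells the RNA came from was not tested. Of 16 genes of haem synthesis and iron, 3 were higher, 1 was lower and 12 did not pass, so the share of higher genes was near the 16.9% of all genes and that of lower genes under the 17.8%. The called genes included the mitochondrial iron carrier *Slc25a37* at 0.61 and *Fech* at 0.17 among the higher and the ferrireductase *Steap3* at -1.02.

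In the next 4 lists 1 gene each was called lower, which is read against the 17.8% of all genes called lower and is no result about a list, and the higher genes stand beside the 16.9% of all genes called higher. Of 9 erythroid transcription factors and receptors, *Klf1* (log2 fold change 1.33), *Gfi1b* (1.28), *Gata1* (1.18) and *Tal1* (0.54) were higher and *Lmo2* (-0.48) lower in litter 2 by edgeR, with adjusted p of 0.00660, 0.0104, 0.0156, 5.15e-05 and 2.78e-05. *Klf1*, *Gfi1b* and *Gata1* lay between 0.125 and 1.15 CPM. *Tal1* lay higher, between 11.2 and 18.4 CPM, and which cells its RNA came from was not tested. Of 6 factors named for globin switching, *Klf1*, *Myb* (1.11), *Sox6* (0.59) and *Lin28b* (0.22) were higher and *Bcl11a* (-0.14) was lower, and *Bcl11a*, *Sox6* and *Lin28b* are also expressed in the cord. Of 12 other red cell genes tested, 4 were higher, namely *Trim10* (1.70), *Hemgn* (1.67), carbonic anhydrase *Car2* (0.87) and *Prdx2* (0.18), and 1 was lower. Of the 4 other globins tested, *Hbq1b* was higher at 1.90 and the non-erythroid *Cygb* lower at -0.92, and the embryonic *Hbb-bh2* did not pass the filter. Between the genotypes the smallest adjusted p of any gene in these lists was 0.0512 by edgeR, for *Cygb*.

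Markers of other cells were read beside the 16.9% of all genes called higher and the 17.8% called lower between the litters, and the counts for macrophages, platelets and the lower spinal cord markers were near or under these shares. The summed level of 10 dorsal root ganglion markers was 867 to 1125 CPM in litter 1 and 623 to 756 CPM in litter 2, with 6 of the 10 lower, among them *Avil* (-1.78), *Runx1* (-1.45), *Prph* (-1.31), *Ntrk3* (-0.32) and *Ntrk2* (-0.16). A set of 10 markers of endothelium, the lining of vessels, summed to 323 to 458 CPM in litter 1 and 269 to 357 CPM in litter 2, where *Cldn5* (-0.60), *Tek* (-0.48), *Esam* (-0.36), *Egfl7* (-0.34) and *Cdh5* (-0.33) were lower and the remaining 5 did not pass. Of 10 spinal cord markers 5 were higher and 1 lower in litter 2, with *Pax6* at 0.64, *Mnx1* at 0.61, *Sox2* at 0.49, *Lhx5* at 0.30, *Nkx6-1* at 0.21 and *Olig2* at -0.51, and their sum overlapped between the litters, at 2711 to 2948 and 2728 to 3216 CPM. The sum of 10 macrophage and microglia markers came to 94.2 to 108 CPM in litter 1 and 73.1 to 107 CPM in litter 2, with *Mrc1* (-0.46) lower and *Csf1r*, the most abundant, at -0.07. Of 9 platelet and megakaryocyte markers, 2 were higher in litter 2, among them *Ppbp* (1.44), while *Pf4* at 0.23 did not pass. Of 6 lumbar Hox genes, *Hoxa10* (0.22) and *Hoxc10* (0.32) were higher in litter 2, and *Hoxa11* (-0.32) and *Hoxc11* (-0.47) were lower in *Dot1l*-cKO embryos, beside 1.09% of all genes called lower between the genotypes. The part of tissue make-up in the litter differences of the globins was not tested.

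Over all 10 embryos, the genes outside the chosen 9 whose log2 CPM followed the log2 of the summed CPM of the 9 genes most closely were *Tent5c* and *Car2*, with Pearson's r of 0.987 and 0.986, followed by *Stk40*, *Hsd3b6*, *Nop9*, *Chrdl1*, *Kel* and *Glipr2*, between 0.970 and 0.947. The search ran over 14811 genes with a mean of at least 1 CPM, and these points share the split into litters. After the mean of each litter was subtracted, *Otop3*, *Dnpep*, *Dbp*, *Tent5c*, *Car2*, *Stap2*, *Trappc9* and *Gper1* had the highest r, between 0.979 and 0.896, and *Tent5c* and *Car2* were in both sets of 8. Within litters the sum was followed by *Hbb-y* at r = 0.920, *Hbb-bt* at 0.920, *Hba-x* at 0.913, *Hbb-bs* at 0.864, *Slc4a1* at 0.824, *Alas2* at 0.787, *Hba-a2* at 0.722 and *Hba-a1* at 0.672, and least by *Hbb-bh1* at 0.439. These genes are part of the sum, so the values describe its make-up.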

How the data were processed

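The deposited values are raw counts of reads per gene, without normalization. The authors made them from polyA RNA of each embryo (NEBNext Ultra libraries) with the snakePipes RNA-seq workflow, in which TrimGalore trimmed the reads, STAR aligned them to mm10 and featureCounts counted them on a GENCODE annotation. The workflow ran with its default settings, and the strand setting and treatment of reads with several matches are not spelled out in the sources used here. Column names gave the embryo of each deposited column. No pair of embryos of the same group had counts alike within sampling noise (20 pairs, chi-square per gene of at least 9.31), and total counts were 40949585 to 68928443 per embryo.

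Gene names, positions and sequences came from GENCODE M21 on GRCm38, the build of mm10, and 54079 of 54146 identifiers matched without their version. Counts were analysed with R 4.3.3 and edgeR 4.0.16 (filterByExpr, TMM, quasi-likelihood test, litter and genotype in the model, and an interaction term for the difference between litters), with Benjamini-Hochberg adjustment over all genes tested at 0.05. CPM are counts scaled to the TMM-adjusted library size. The standard error was the log2 fold change divided by the square root of F. DESeq2 1.42.0, limma-voom (limma 3.58.1), other scalings and filters, summed copies, single litters or genotypes and leaving out each embryo were alternatives, and a GC correction in 20 bins and a ratio without *Hba-a1* were added after the data were seen. The count tests were checked on simulated counts. Correlations used log2(CPM + 0.5).

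The 9 genes and all lists were chosen with earlier results of these data known. Named list genes are those with an adjusted p below 0.05 in either comparison, at most 6 a list by size of change, the highest gene of a list with fewer, and the 8 genes most like the summed genes over all embryos and within litters. A few genes outside that rule (*Sptb*, *Ank1*, *Dmtn*, *Aqp1*, *Epb41*, *Pf4* and *Hbb-bh2*) were named after their values were seen. Some list genes that the rule names are not reported here.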

Additional observations from a re-analysis of the deposited data

How the results depend on the processing

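Between the litters, the 5 genes called higher and *Hbb-bs* called lower kept these calls under every scaling, filter and tool tried and without any one embryo, except that *Alas2* was not called in controls alone and that *Hbb-bs* was tested as the sum with *Hbb-bt* where copies were summed. *Hba-a1* was called higher in addition without the filter and in *Dot1l*-cKO alone. All genes called fell to 3661 in *Dot1l*-cKO alone and ranged from 5831 to 6976 over the leave-one-out fits. Values that turned sign belonged to genes without a call: *Hbb-bt* at 0.25 in *Dot1l*-cKO alone, and *Hba-a1* at -0.25 and *Hba-a2* at -0.34 in controls alone. Over the leave-one-out fits *Hbb-bt* ranged from -0.20 to 0.0849 and *Hba-a2* from -0.15 to 0.18.

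Between the genotypes, the genes called higher numbered 3 without the expression filter, 0 in litter 1 alone, 5 in litter 2 alone, 0 without the litter in the model and 0 to 2 over the leave-one-out fits. All genes called, 591 in all 10 embryos, numbered 2201 without the filter, 1492 by DESeq2, 347 with GC correction, 12 in litter 1 alone, 964 in litter 2 alone, 0 without the litter in the model (edgeR, 1867 at an unadjusted p under 0.05), and from 53 without *Dot1l*-cKO embryo 5 to 1377 without *Dot1l*-cKO embryo 3. In litter 1 alone *Hbb-y* (-0.16), *Hba-x* (-0.00197), *Hbb-bt* (-0.12), *Hbb-bs* (-0.11), *Alas2* (-0.0899) and *Slc4a1* (-0.0576) were below 0, and *Hba-a2* was at 0.38 in litter 2 alone and at 0.58 as the sum with *Hba-a1*, which itself was at 0.73 with GC correction. Over the leave-one-out fits *Hbb-y* ranged from -0.0730 to 0.0769, *Hbb-bs* from -0.0321 to 0.16 and *Hba-a2* from -0.23 to 0.0475.

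The interaction called 7 of the 9 genes without the filter, where its standard errors were smaller for all but *Alas2*. Those of the litter and genotype differences were smaller for all 9 there. All genes called, 2 in the fit reported, numbered 437 without the filter, 92 by DESeq2, 4 by library size, 1 by limma-voom and 1 to 126 over the leave-one-out fits, where *Hbb-bh1* ranged from -0.0305 to 0.22. The log2 difference in blood content between the litters was 1.13 with *Alas2* and *Slc4a1* alone, while the summed adult globins overlapped between the litters, and 0.62 to 0.82 over the leave-one-out values, and between the genotypes of litter 2 it was 0.28 to 0.56. The log2 difference of the embryonic to adult ratio between the litters was 1.44 with beta-like genes alone and 1.44 without *Hba-a1*. Between the genotypes of litter 2 it was -0.17 and -0.11 in the same order. The cause of these differences was not tested. Counts were 358 to 77927 per gene and embryo, and for the lower genes, such as *Alas2* at 13.8 ± 0.0491 CPM (SD, n = 2) in the controls of litter 2, counting error was not small beside the spread between embryos.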
